A study of Mus musculus with 12 samples.

Results

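The 8 genes described here encode solute carriers of meningeal fibroblasts and of the brain's barriers: Slc6a13, Slc6a20a, Slc13a3, Slc13a4, Slc16a12, Slc22a6, Slc22a8 and Slc47a1. They were matched by symbol to the identifiers of the count and TPM tables, 8 of 55401 genes in all, and all 8 passed the filter on low counts. The genes were chosen by measured values of these same libraries, among them the count differences between overexpression and control. The levels and both comparisons that use the overexpression libraries are therefore given as descriptions. Where the number of the 8 genes that passed a test in them is printed, it stands beside the share of all genes that passed, and nothing is read from it.

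The libraries were made from poly(A) RNA of the prefrontal cortex. The animals were C57BL/6J males, 14 weeks old, whose dorsomedial prefrontal cortex had received virus bilaterally 4 weeks earlier. All groups ate the same standard chow, labelled as holding vitamin B12 at 50 mg/kg. In the overexpression group (Ttr-OE, 4 libraries) an adeno-associated virus (AAV) carried GFP joined to the transthyretin gene Ttr under the CAG promoter, which is active in most cell types. In the knockdown group (Ttr-KD, 4 libraries) an AAV carried a short hairpin RNA against Ttr under the U6 promoter together with GFP under CAG. In the control group (ctrl, 4 libraries) an AAV carried GFP alone under CAG. All groups thus received surgery, an AAV and GFP, and the control vector came from another supplier than both Ttr vectors, so supplier and vector content cannot be told apart. The labels do not say that each library came from its own mouse, so p-values measure the spread between libraries, which may be partly technical.

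Solute carriers move small molecules across membranes, and many of those that clear the cerebrospinal fluid sit in the meninges, the choroid plexus and the vessel lining. The fibroblast layers and the arachnoid barrier of the meninges take up neurotransmitters, amino acids, sulphate and organic acids from the fluid around the brain. Neurons of the cortex express few of these genes. In bulk tissue, fewer cells of a type and less RNA per cell cannot be told apart.

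Total counts ranged from 19879629 to 37166146 per library. Ttr had 2121 to 20940 counts in the overexpression libraries, 3 to 47 in the knockdown libraries and 14 to 200 in the controls, so its counts check the overexpression label and not the knockdown label. The neuronal genes Snap25 and Slc17a7 had at least 53060 and 30754 counts in every library, so RNA of neurons was present in all 12. These counts do not check the labelled region. The collagen gene Col1a1 had 208 to 374 counts in overexpression libraries, 62 to 238 in knockdown libraries and 42 to 286 in controls, so RNA of cells that make fibrillar collagen was present in all.

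Promoter sequences were looked at because the 8 genes varied together between libraries. RefSeq windows on GRCm38.p6, from 250 bases before to 50 bases after the start annotated there, were held for 7 of the 8 genes, all but Slc47a1. Distances are counted from that start, which can differ from the gene positions given below. The window of Slc22a8 lies inside the span given for that gene. Slc6a13 had 3 windows, of which the one nearest the start of the gene was searched, while shares over all windows count every window. Those of Slc22a6, Slc22a8 and Slc6a20a are shown since they share the letters GTTAAT, and that of Slc13a4 since this gene had the largest difference and lacks them. Capitals mark matches, on either strand, to any of the 5 motifs searched: GTTAAT, which is part of the site of the HNF1 factors, TATAAA, bound by the basal machinery, GGGCGG, the box of the SP1 factor, CCAAT, the box bound by the NF-Y factor, and TGTTTAC, a site of forkhead factors. No motif is part of another. The windows are chr19:8617746-8618045 (plus strand), chr19:8592932-8593231 (plus strand), chr9:123678783-123679082 (minus strand) and chr6:35308077-35308376 (minus strand), each written 5′ to 3′ on the strand of its gene.
Slc22a6: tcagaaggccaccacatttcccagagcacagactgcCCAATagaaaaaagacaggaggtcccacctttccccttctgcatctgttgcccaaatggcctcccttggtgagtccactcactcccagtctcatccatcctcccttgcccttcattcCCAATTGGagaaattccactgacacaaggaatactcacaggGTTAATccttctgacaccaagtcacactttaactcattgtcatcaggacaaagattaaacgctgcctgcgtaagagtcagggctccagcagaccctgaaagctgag
Slc22a8: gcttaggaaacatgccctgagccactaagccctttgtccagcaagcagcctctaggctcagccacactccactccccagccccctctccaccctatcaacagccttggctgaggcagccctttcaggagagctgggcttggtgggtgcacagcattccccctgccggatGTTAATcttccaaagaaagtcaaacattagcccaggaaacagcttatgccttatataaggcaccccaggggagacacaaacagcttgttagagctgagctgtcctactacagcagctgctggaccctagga
Slc6a20a: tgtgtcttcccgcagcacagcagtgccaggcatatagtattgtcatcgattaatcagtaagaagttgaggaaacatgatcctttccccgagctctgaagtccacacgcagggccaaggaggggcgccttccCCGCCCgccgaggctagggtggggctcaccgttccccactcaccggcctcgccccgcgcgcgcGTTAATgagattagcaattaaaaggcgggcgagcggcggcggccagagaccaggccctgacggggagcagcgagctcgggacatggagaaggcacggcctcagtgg
Slc13a4: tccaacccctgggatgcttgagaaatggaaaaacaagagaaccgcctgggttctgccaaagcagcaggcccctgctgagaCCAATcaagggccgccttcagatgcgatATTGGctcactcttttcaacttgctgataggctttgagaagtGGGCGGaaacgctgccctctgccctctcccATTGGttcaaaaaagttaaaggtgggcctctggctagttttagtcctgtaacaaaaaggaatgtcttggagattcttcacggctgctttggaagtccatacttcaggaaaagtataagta

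GTTAAT began 56 bases before the start in Slc22a6, 56 bases before it in Slc6a20a and 81 bases before it in Slc22a8. It was present in 3 of the 7 windows, against 7.10% of all 32851 promoter windows. GGGCGG was present in 4 of 7 (Slc6a13, Slc13a3, Slc13a4 and Slc6a20a), against 35.7% of all windows, and CCAAT in 2 of 7 (Slc13a4 and Slc22a6), against 37.4%. In Slc22a6, 2 of the CCAAT matches overlap each other on opposite strands. TATAAA and TGTTTAC were in 0 of 7, against 13.6% and 3.65% of all windows. A match is a description of the letters and says nothing of a bound factor.

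The neurotransmitter and amino acid carriers come first. Slc6a13 (ENSMUSG00000030108, plus strand of chromosome 6, 121300227 to 121337733, GRCm38) encodes a sodium-coupled carrier of GABA and taurine. It had 11.8, 9.47, 16.1 and 12.2 TPM (abundance per transcript length, scaled to the same total in every library) in overexpression replicates 1 to 4. Its level was 5.87, 6.05, 9.95 and 6.97 TPM in knockdown replicates 1 to 4, against 5.18, 3.68, 7.18 and 2.76 TPM in control replicates 1 to 4. The overexpression libraries were all above the controls, and overexpression replicate 2 lay below knockdown replicate 3. The log2 difference in counts was 1.33 ± 0.26 (SE, edgeR) between overexpression and control.

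Slc6a20a (ENSMUSG00000036814, minus strand of chromosome 9, 123634770 to 123678885) encodes a carrier of proline and other imino acids. It had 17.8, 13.0, 27.2 and 16.4 TPM in overexpression replicates 1 to 4. In knockdown replicates 1 to 4 it had 7.36, 7.56, 12.8 and 11.7 TPM, against 9.36, 7.44, 10.6 and 4.70 TPM in control replicates 1 to 4. The overexpression libraries lay above all others, by a narrow margin over knockdown replicate 3, and the log2 difference from control was 1.15 ± 0.27 (SE). Its close copy Slc6a20b, 2204 bases away on the same strand, can share reads with it, which makes both values uncertain. Slc6a20b had 22 to 40 counts in overexpression libraries, 5 to 39 in knockdown libraries and 8 to 18 in controls, few beside the 384 to 809, 166 to 475 and 117 to 418 counts of Slc6a20a in the same groups. Genes on the opposite strand also overlap Slc6a20a (Ccr9 among them) and Slc13a3, Slc16a12 and Slc6a13. Reads of such pairs cannot be told apart, since the strand setting of the counting is not given in the sources used here. Slc6a20a also overlaps Gm47171 on its own strand (123644194 to 123646987), where strand would not separate the reads.

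The SLC13 genes encode sodium-coupled carriers of anions. Slc13a3 (ENSMUSG00000018459, minus strand of chromosome 2, 165405028 to 165473230) takes up dicarboxylates. Organic anion transporters of the SLC22 family exchange some dicarboxylates for their substrates in the kidney. Slc13a3 had 13.7, 12.7, 18.3 and 17.0 TPM in overexpression replicates 1 to 4. Its level was 8.45, 10.1, 14.4 and 10.6 TPM in knockdown replicates 1 to 4, against 7.93, 8.44, 9.53 and 5.45 TPM in control replicates 1 to 4. All overexpression libraries were above all controls, and knockdown replicate 3 lay inside the overexpression range. The log2 difference between overexpression and control was 0.91 ± 0.18 (SE).

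Slc13a4 (ENSMUSG00000029843, minus strand of chromosome 6, 35267957 to 35308131) takes up sulphate. Its level was 8.25, 7.53, 15.0 and 11.2 TPM in overexpression replicates 1 to 4. In knockdown replicates 1 to 4 it had 1.87, 2.34, 7.94 and 4.64 TPM, against 2.53, 2.48, 5.18 and 0.770 TPM in control replicates 1 to 4. All overexpression libraries were above all controls, and knockdown replicate 3 lay inside the overexpression range. It varied more than any other of the 8 genes, with 19.5 times as much TPM in overexpression replicate 3 as in control replicate 4. The difference between overexpression and control, 1.85 ± 0.49 on the log2 scale (SE), was also the largest of the 8.

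The SLC22 genes encode exchangers of organic anions that clear drugs and metabolites, best known from the kidney. Slc22a6 (ENSMUSG00000024650, organic anion transporter 1, plus strand of chromosome 19, 8618039 to 8628299) and Slc22a8 (ENSMUSG00000063796, organic anion transporter 3, 8591254 to 8611835) are neighbours with a gap of 6203 bases. Slc22a6 had 4.15, 5.44, 8.17 and 5.14 TPM in overexpression replicates 1 to 4. Its level was 1.64, 1.57, 4.69 and 1.98 TPM in knockdown replicates 1 to 4, against 1.47, 1.53, 2.81 and 0.661 TPM in control replicates 1 to 4. All overexpression libraries were above all controls, knockdown replicate 3 lay inside the overexpression range, and the other knockdown libraries were near the controls. The log2 difference between overexpression and control was 1.74 ± 0.40 (SE).

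Slc22a8, which is also expressed by brain vessels and choroid plexus, had 11.5, 9.86, 14.5 and 14.1 TPM in overexpression replicates 1 to 4. In knockdown replicates 1 to 4 it had 6.68, 8.29, 11.8 and 10.1 TPM, against 7.87, 6.77, 9.50 and 6.18 TPM in control replicates 1 to 4. The overexpression and control ranges did not overlap here either, by 9.86 against 9.50 TPM at the nearest, while knockdown replicates 3 and 4 lay inside the overexpression range. The log2 difference between overexpression and control, 0.66 ± 0.18 (SE), was the smallest of the 8. The neighbours thus differed in how far they varied, with a ratio of the highest to the lowest library of 12.4 for Slc22a6 and 2.35 for Slc22a8 in TPM.

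The remaining pair belongs to other families. Slc16a12 (ENSMUSG00000009378, minus strand of chromosome 19, 34668403 to 34747289), of the monocarboxylate carrier family, is a creatine transporter. It had 2.27, 1.65, 2.69 and 2.24 TPM in overexpression replicates 1 to 4. Its level was 1.37, 1.42, 1.66 and 1.31 TPM in knockdown replicates 1 to 4, against 0.990, 1.30, 1.40 and 0.974 TPM in control replicates 1 to 4. By mean TPM Slc16a12 was the lowest of the 8 in every group, with 36 to 119 counts per library, and all overexpression libraries were above all controls (log2 difference 0.86 ± 0.17, SE).

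Slc47a1 (ENSMUSG00000010122, minus strand of chromosome 11, 61343401 to 61378345) encodes a proton-coupled exporter of organic cations. It had 3.16, 8.51, 8.65 and 4.65 TPM in overexpression replicates 1 to 4. In knockdown replicates 1 to 4 it had 0.782, 1.65, 4.10 and 3.68 TPM, against 1.65, 2.28, 7.47 and 0.751 TPM in control replicates 1 to 4. This was the only one of the 8 whose overexpression and control ranges overlapped, since control replicate 3 was above overexpression replicates 1 and 4. Its log2 difference between overexpression and control was 0.95 ± 0.60 (SE), and it was 1.94 without control replicate 3 and 0.65 without control replicate 4. Slc47a2, a relative 540 bases away, had at most 5 counts in any library.

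**Figure D1:**
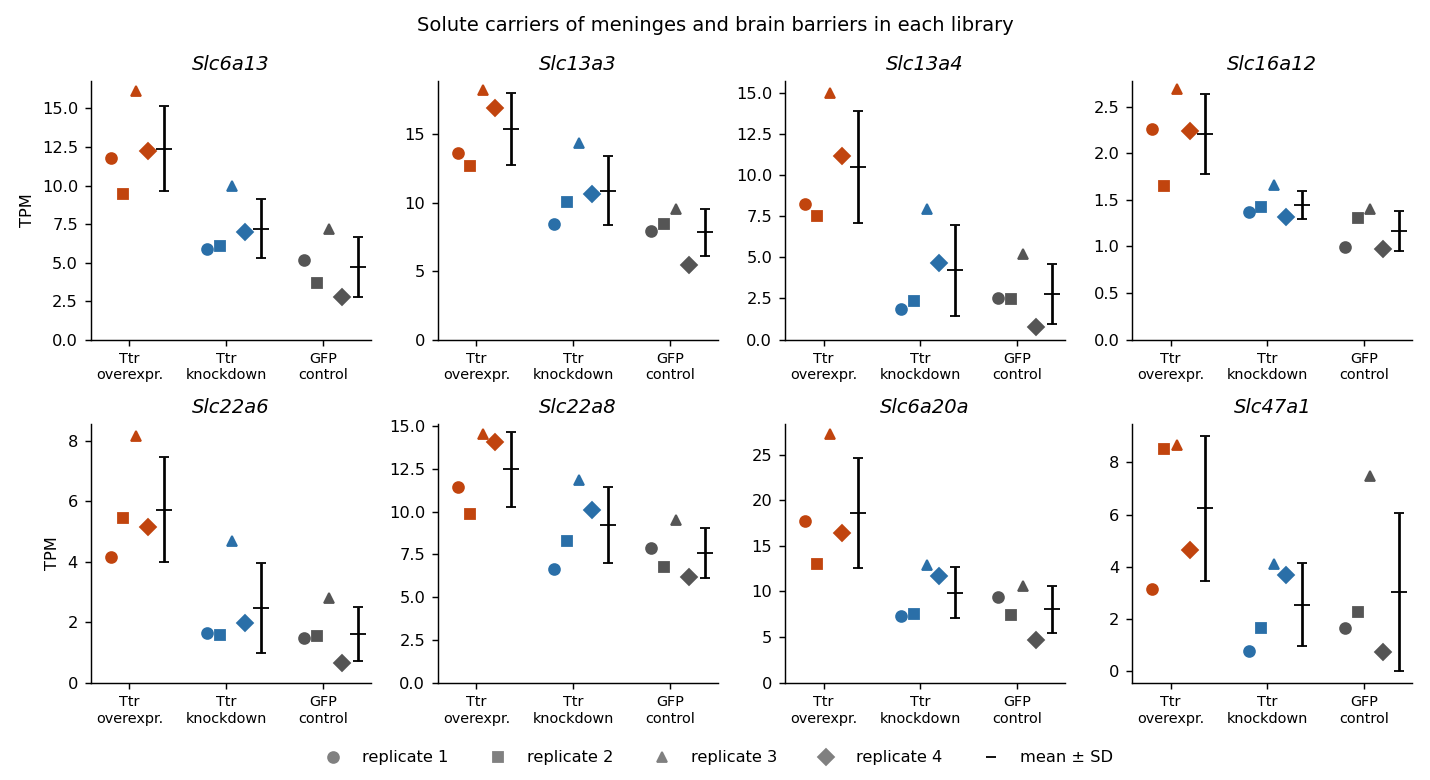
TPM of each of the 8 genes (y axes, linear) in the overexpression, knockdown and control libraries, with a marker shape for each replicate and the mean ± SD of the 4 libraries at the right of each group. The triangle, replicate 3, is the highest knockdown and the highest control library in every panel, and the overexpression libraries lie above the controls in all panels but that of Slc47a1.

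In order of mean TPM over the 4 overexpression libraries, Slc6a20a (18.6 ± 6.07, SD) and Slc13a3 (15.4 ± 2.65) came first, then Slc22a8 (12.5 ± 2.21), Slc6a13 (12.4 ± 2.76), Slc13a4 (10.5 ± 3.39), Slc47a1 (6.24 ± 2.77), Slc22a6 (5.73 ± 1.72) and Slc16a12 (2.21 ± 0.428). The ranges of neighbours in this order overlapped, except those of Slc22a6 and Slc16a12. In controls Slc6a20a (8.02 ± 2.57), Slc13a3 (7.84 ± 1.72) and Slc22a8 (7.58 ± 1.46) differed by less than their spread, and Slc16a12 was again the lowest by mean (1.17 ± 0.216). The knockdown means kept the same 3 genes on top, with 10.9 ± 2.52 TPM for Slc13a3, 9.87 ± 2.82 for Slc6a20a and 9.23 ± 2.23 for Slc22a8. The share of each gene in the set is given for a pair of genes chosen after their values were seen. Slc13a4 made up 11.1% to 13.6% of the summed TPM of the 8 genes in overexpression libraries, 5.5% to 11.8% in knockdown libraries and 3.5% to 9.6% in controls. Slc22a8 made up 13.1% to 17.0% in overexpression libraries, 17.6% to 21.3% in knockdown libraries and 17.7% to 27.8% in controls.

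Overexpression against control compares the Ttr vector with the GFP vector, which came from another supplier. The summed level of the 8 genes was 68.2 to 110.6 TPM in overexpression libraries and 22.3 to 53.7 TPM in controls. All 8 log2 differences were positive, from 0.66 to 1.85 with a median of 1.05, where the median over the 18289 genes tested was 0.0038. In CPM (counts scaled to a common library size with TMM factors) 7 of the 8 had ranges that did not overlap, all higher in overexpression, against 1.88% of all genes tested that were higher throughout and 0.837% that were lower throughout. In edgeR 0 of the 8 passed at an adjusted p of 0.05, against 0.00547% of all genes tested, with 7 of 8 below 0.05 before adjustment and higher, against 4.58% of all genes higher and 6.26% in either direction. DESeq2 passed 4 of them (Slc6a13, Slc13a3, Slc16a12 and Slc6a20a), against 0.208% of genes, and limma-voom 0. Since this comparison helped to choose the genes, nothing is read from these counts.

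Knockdown against control compares the hairpin vector with the same GFP vector, again from another supplier. The summed level of the 8 genes was 34.0 to 67.4 TPM in knockdown libraries, beside 22.3 to 53.7 TPM in controls. The ranges of the groups overlapped for all 8 genes, where 2.78% of all genes tested were higher and 1.33% lower throughout, and 0 of the 8 passed in edgeR, where 0.00547% of all genes tested did. Before adjustment 2 of the 8 were below 0.05 (Slc6a13 and Slc13a3), both higher, against 3.85% of all genes higher and 5.68% in either direction. DESeq2 passed 0 of the 8, against 0.235% of all genes, and limma-voom 0, against 0.00547%. This comparison shares its controls with the one above, and its results were known too when the genes were chosen. The log2 difference was 0.60 ± 0.26 for Slc6a13 (SE, edgeR adjusted p = 0.863), with 6.40 ± 1.56 CPM in knockdown libraries and 4.18 ± 1.68 CPM in controls (SD, n = 4 each). For Slc13a3 it was 0.47 ± 0.18 (edgeR adjusted p = 0.838), with 15.3 ± 3.27 CPM in knockdown libraries and 11.1 ± 2.46 CPM in controls. Slc13a4, Slc22a6, Slc16a12, Slc6a20a and Slc22a8 had log2 differences of 0.60, 0.59, 0.29, 0.29 and 0.28 in this order, with edgeR adjusted p from 0.900 to 0.948. Slc47a1 had -0.28 ± 0.62 (edgeR adjusted p = 0.984), and its difference was 0.71 without control replicate 3 and 0.0061 without knockdown replicate 1. The differences minus and plus 2 SE ran from -0.39 to 1.58 for Slc13a4 and from -1.52 to 0.97 for Slc47a1, so changes of that size were not resolved. The median of the 8 was 0.38, against 0.0047 over all genes tested, and it was 0.15 without knockdown replicate 3 and 0.64 without control replicate 3.

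In overexpression against knockdown, which shares the overexpression libraries with the first comparison, all 8 differences were positive, from 0.38 (Slc22a8) to 1.25 (Slc13a4), with a median of 0.79 against 0.0002 over all genes tested. Slc47a1 (1.23 ± 0.61, SE) and Slc22a6 (1.15 ± 0.39) followed Slc13a4. In edgeR 0 of 8 passed, against 0.00547% of all genes, with 6 of 8 below 0.05 before adjustment and higher, against 2.78% of all genes higher and 5.1% in either direction. DESeq2 passed 0 of the 8, against 0.0164% of all genes, and limma-voom 0. These counts too are given as a description. The CPM ranges did not overlap for 2 of the 8, Slc6a20a and Slc16a12, against 1.23% of all genes higher throughout and 1.14% lower throughout. For Slc16a12 that separation, 2.66 against 2.60 CPM at the nearest, was absent in TPM, where the lowest overexpression library had 1.650 and the highest knockdown library 1.656.

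**Figure D2:**
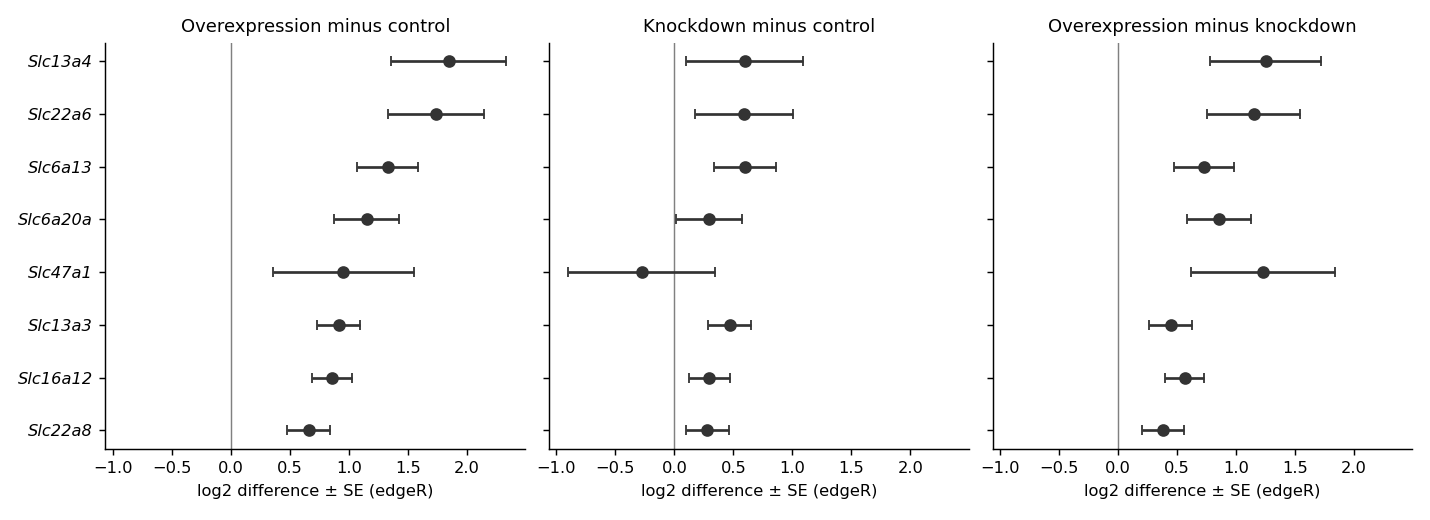
Log2 differences (x axes) with their SE from edgeR for the 8 genes (rows, ordered by the first panel) in the 3 comparisons, with 4 libraries in each group. Values run from 0.66 to 1.85 in overexpression minus control and from -0.28 to 0.60 in knockdown minus control.

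The 8 genes varied together from library to library, also inside the groups. Control replicate 3 was the highest control in 8 of 8 genes and control replicate 4 the lowest in 8 of 8. Knockdown replicate 3 was the highest of its group in 8 of 8 and knockdown replicate 1 the lowest in 7. By CPM overexpression replicate 3 was the highest of its group in 7 of 8, and overexpression replicate 2 the lowest in 6. Over the 12 libraries, Pearson's r between the log2 CPM of 2 of the genes ran from 0.65 to 0.97 over the 28 pairs, with a median of 0.92. On deviations from the group means the median was 0.86 and the lowest 0.47. These are descriptions, since all pairs share libraries, dissection and depth. Control replicate 3 and knockdown replicate 3 were also the libraries with the most counts in their groups (37166146 and 34606413), while overexpression replicate 3 (27644043) was not. The part of depth in this pattern was not tested.

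The genes most like the 8 were sought among the other 18269 tested genes with a symbol, by Pearson's r with the mean centred log2 CPM of the 8 (the carrier score) over the 12 libraries. The closest 8 were Fmod (r = 0.99), Gjb2, Pcolce, Ogn, Cped1, Kcnj13, Aldh1a2 and Aebp1 (r = 0.97). On deviations from the group means, their r was 0.93 to 0.99. Fmod and Ogn encode small proteoglycans of the collagen matrix, Pcolce an enhancer of procollagen processing, Aebp1 a collagen-binding protein, Gjb2 the gap junction protein connexin 26, Aldh1a2 an enzyme that makes retinoic acid and Kcnj13 a potassium channel. Of the 8, Fmod, Gjb2, Ogn and Aldh1a2 are on the list of meningeal fibroblast markers and Kcnj13 on that of choroid plexus markers.

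The mean score of the meningeal fibroblast markers, a list that holds no solute carrier, varied with the 8 genes, but not every marker did. The 3 most abundant by TPM were Nnat (0.13 in overexpression against control), Igfbp6 (-0.06) and Mgp (1.04). Nnat had a mean of 114 CPM in overexpression libraries, 146 in knockdown libraries and 104 in controls. All 24 markers passed the filter and none was at 0 in any library. In overexpression against control 23 of 24 were higher by fitted value, with a median log2 difference of 1.04 and 7 of 24 with ranges apart (1.88% of all genes), and 21 were below 0.05 before adjustment in edgeR (6.26% of all genes). In edgeR (0.00547% of all genes) and limma-voom (0%) 0 passed. DESeq2 passed 2, against 0.208% of all genes: the growth factor gene Bmp6 and Igfbp2, which encodes a binding protein of insulin-like growth factors. This list too was written with earlier results of these data known. In knockdown against control the median of the markers was 0.28 and in overexpression against knockdown 0.77, beside 0.38 and 0.79 for the 8 carriers. The marker score ran from 0.34 to 1.09 in overexpression libraries, from -0.57 to 0.36 in knockdown libraries and from -1.24 to 0.27 in controls. The carrier score ran from 0.46 to 1.17, from -0.67 to 0.43 and from -1.38 to 0.16 in the same groups. In each library the scores lay close together, with a carrier score minus marker score of 0.084 to 0.15 in overexpression libraries, -0.19 to 0.12 in knockdown libraries and -0.14 to -0.024 in controls. The part of the amount of meningeal tissue in the differences of the carriers was not tested.

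**Figure D3:**
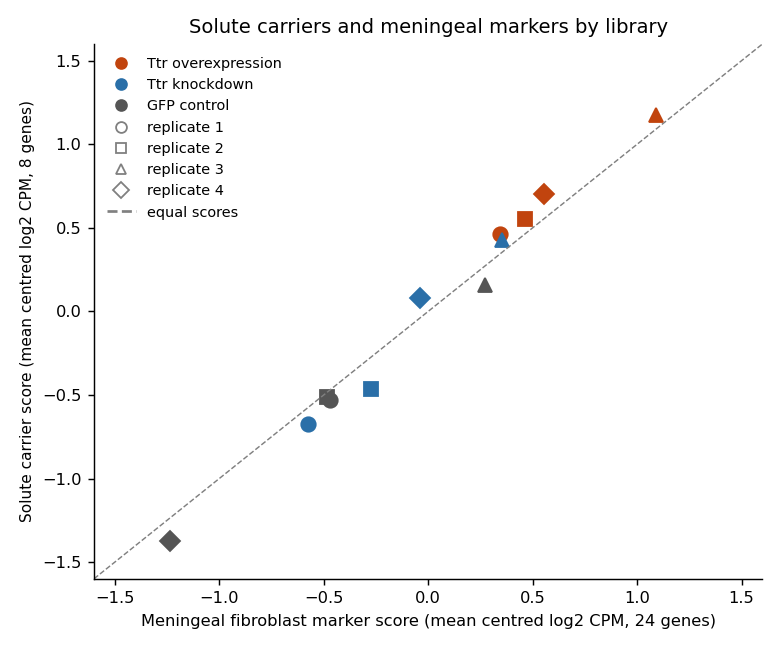
Mean centred log2 CPM of the 8 solute carriers (y axis) against that of the 24 meningeal fibroblast markers (x axis) in the 12 libraries, coloured by group, with the dashed line at equal scores. Libraries lie along the line from control replicate 4 (-1.24, -1.38) to overexpression replicate 3 (1.09, 1.17).

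Of the other cells of the barriers, those of the arachnoid layer come first. Of the arachnoid barrier markers Krt8 and Krt18 had at most 1 and 6 counts, while Cdh1, a cell adhesion molecule of that layer, had 46 to 138 counts in overexpression libraries, 5 to 63 in knockdown libraries and 1 to 125 in controls. The 4 of 6 that were tested had a median of 0.27 in overexpression against control. By falling TPM they were Cldn11 (-0.23 ± 0.27, SE), Ppp1r1a (0.03 ± 0.07), Dpp4 (0.51 ± 0.20) and Cdh1 (0.99 ± 0.68). Most of the summed CPM of the list came from Cldn11, which oligodendrocytes also make. That sum was 162 to 212 in overexpression libraries, 136 to 196 in knockdown libraries and 156 to 277 in controls. The score of the list, in which each tested gene weighs the same, was 0.036 to 0.67, -0.70 to 0.11 and -0.82 to 0.34 in the same groups. Of 17 choroid plexus markers 9 were tested, with a median of 0.42. Some defining genes of the plexus were at or near 0: Kcne2 had 0 to 2 counts, Tmem72 0 to 5 and Folr1 0 to 11 over all libraries. Others were detected at low levels, and 8 of the 9 tested had positive log2 differences in overexpression against control. Mean CPM of Clic6 was 2.36 in overexpression, 1.41 in knockdown and 1.08 in control libraries. For Aqp1 it was 0.65, 1.13 and 0.19 in this order. Otx2 had at most 11 counts in overexpression libraries, 15 in knockdown libraries and 2 in controls. Most of the summed CPM of the list came from Enpp2, which oligodendrocytes also make. The sum was 239 to 289 in overexpression libraries, 200 to 275 in knockdown libraries and 232 to 323 in controls. The score of the list, in which each tested gene weighs the same, was -0.12 to 0.79, -0.24 to 0.41 and -0.49 to -0.092 in the same groups. The channel gene Kcnj13 of that list had 23 to 57 counts in overexpression libraries, 4 to 40 in knockdown libraries and 0 to 32 in controls. Mural markers had a median of 0.38 in overexpression against control (15 of 15 tested) and endothelial markers one of 0.20 (15 of 15). In edgeR 0 of either list passed (0.00547% of all genes), with 9 and 5 below 0.05 before adjustment, against 6.26% of all genes. DESeq2 passed 0 endothelial genes and 3 mural genes, the smooth muscle genes Acta2, Tagln and Myh11, against 0.208% of all genes. Ranges were higher throughout in overexpression than in controls for 6 of 15 mural and 0 of 15 endothelial genes, against 1.88% of all genes. They were higher throughout in knockdown than in controls for 3 of 15 mural and 5 of 15 endothelial genes, against 2.78% of all genes. All 15 endothelial log2 differences were positive in both comparisons. The summed CPM of the mural and endothelial lists was 280 to 377 and 292 to 379 in overexpression libraries, 274 to 295 and 292 to 371 in knockdown libraries, and 249 to 276 and 265 to 292 in controls. In knockdown against control the median was -0.27 for the arachnoid markers, with 3 of 4 negative, 0.25 for the choroid plexus markers, 0.096 for the mural and 0.21 for the endothelial markers, beside 0.38 for the 8 carriers. Cortical neuron and astrocyte markers had medians of -0.062 and 0.13 in overexpression against control, and striatal neuron markers one of 0.25. The summed CPM of the striatal markers was 239 to 1360 in overexpression libraries, 226 to 1222 in knockdown libraries and 278 to 1093 in controls, so it varied several-fold inside each group. The part of these cell types in the differences of the carriers was not tested.

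Most other transporters of the same families had values near 0. Of 57 other genes of the families SLC6, SLC13, SLC16, SLC22 and SLC47, 32 were tested. In any of the 3 comparisons 0 of them passed in edgeR, DESeq2 or limma-voom, where 0.00547% of all genes tested passed in edgeR in each. In DESeq2 0.208% of all genes passed in overexpression against control, 0.235% in knockdown against control and 0.0164% in overexpression against knockdown. Before adjustment 4 of the 32 were below 0.05 in overexpression against control (6.26% of all genes), 2 in knockdown against control (5.68%) and 1 in overexpression against knockdown (5.1%). The median log2 differences of the 32 were 0.052, 0.0074 and 0.073 in the same order. Among the most abundant by TPM were Slc22a17 (-0.08 in overexpression against control), a receptor for lipocalin 2, and Slc6a17 (-0.06), a vesicular amino acid carrier of neurons. Ranges in overexpression were above those in controls for 2 of the 32, Slc22a2 and Slc6a20b, against 1.88% of all genes. For Slc22a2, an organic cation transporter, overexpression replicates 1 to 4 gave 29, 23, 36 and 28 counts. Knockdown replicates 1 to 4 gave 6, 6, 41 and 10 counts of it, against 6, 2, 14 and 3 counts in control replicates 1 to 4, so its highest knockdown and its highest control library were those of the 8 genes. Slc6a12, a betaine and GABA carrier 5342 bases from Slc6a13, was chosen after its values were seen. It had 15 to 30 counts in overexpression libraries, 6 to 31 in knockdown libraries and 1 to 18 in controls (log2 difference between overexpression and control 1.42 ± 0.52, SE, edgeR adjusted p = 0.724).

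Transporter lists of other barrier and brain cells were tested in the same way. In overexpression against control the median log2 difference was 0.12 over 16 of 16 endothelial barrier transporters, 0.075 over 13 of 16 choroid plexus transporters and 0.070 over 15 of 15 glial and neuronal transporters. In knockdown against control the medians were 0.098, 0.044 and 0.091. In edgeR, DESeq2 and limma-voom 0 genes of these lists passed in either comparison. Of all genes, 0.00547% passed in edgeR in each, and 0.208% and 0.235% in DESeq2 for overexpression and knockdown. Before adjustment 1, 0 and 1 were below 0.05 in edgeR in overexpression against control, against 6.26% of all genes. Named by abundance, the endothelial list gave Slc3a2 (-0.01 in overexpression against control), Slc38a3 (0.13) and Slc2a1 (0.06), the glucose carrier of the blood-brain barrier. The choroid plexus list gave Slc4a10 (0.01), Slc23a2 (0.09) and Slc35f1 (-0.06), and the glial and neuronal list Slc17a7 (-0.12), Slc1a2 (0.0015) and Slc1a3 (0.15), carriers of glutamate.

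**Figure D4:**
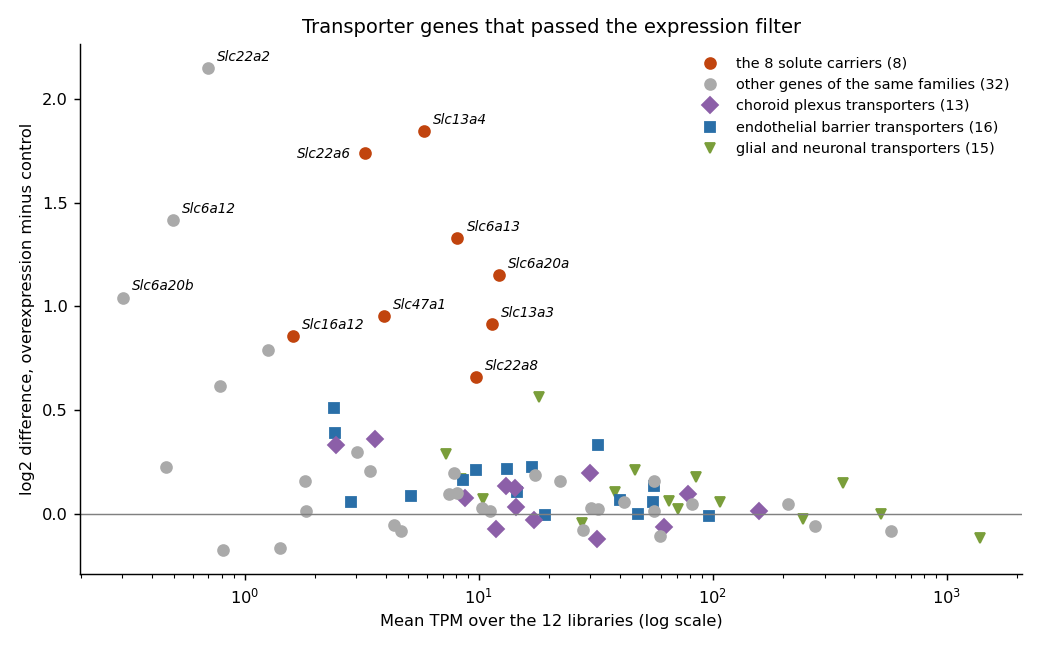
Log2 difference between overexpression and control (y axis, edgeR) against mean TPM over the 12 libraries (x axis, log scale) for the 8 solute carriers, the 32 tested genes of the same families and 3 other transporter lists. The 8 carriers lie between 0.66 and 1.85, and the most abundant transporters lie near 0.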

How the data were processed

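Poly(A) RNA of 12 prefrontal cortex libraries in 3 groups of 4 was analysed. The authors deposited raw counts per gene, whole numbers that differ in total between libraries, and TPM values, scaled to a fixed total per library. A deposited table of transformed values was not used here. Per the submitters' processing notes, the tools were DESeq2, featureCounts, UMI-tools and bcl2fastq 2.20.0.422, with the build GRCm38 (mm10) and no role or order stated. For the aligner, the annotation release and the strand setting the sources used here give nothing.

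Groups were taken from the labels. Of 55401 identifiers 55141 had a symbol, and identifiers without one held 0.00474% of the counts. After edgeR's filter on low counts, 18289 genes were fitted with TMM scaling and quasi-likelihood tests in edgeR 4.0.16 (R 4.3.3) over all 12 libraries without a covariate. P-values were Benjamini-Hochberg adjusted over all genes tested, at a threshold of 0.05. DESeq2 1.42.0 and limma 3.58.1 (limma-voom) were run as alternatives, and the procedure was tested on simulated data. Log2 CPM used a prior count of 2, and a score is the mean of log2 CPM centred on each gene's mean over libraries. TPM served to compare levels between genes.

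All 8 genes and the 12 other lists were chosen with earlier results of these data known. Named from each list were the genes with the most TPM, except 1 that is not reported here, and genes picked otherwise are said to be so. Promoter windows came from RefSeq and positions from GENCODE M21. Pairs of libraries in a group differed by 5.00 to 26.1 times the sampling noise (chi-square per degree of freedom), so none looked like 1 library deposited again. This does not show that they came from separate mice. Between 17 and 809 counts per library lay behind each of the 8 genes.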

Additional observations from a re-analysis of the deposited data

Results flagged for a closer look

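Slc16a12 had 2.60 CPM in knockdown replicate 3, against 2.23, 2.25 and 2.24 CPM in the other knockdown libraries, a gap that passed Dixon's test at the 95% level. Chance alone gives about 1 in 20 groups such a gap, and 27 groups were checked. Knockdown replicate 3 was also the highest knockdown library for the other 7 of the 8 solute carriers.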

How the results depend on the processing

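The medians of the 8 carriers stayed positive under all 23 alternatives. The overexpression libraries helped to choose these genes, so for both comparisons that use them this is a description. Leaving out 1 library gave 0.15 to 0.64 in knockdown against control, 0.85 to 1.46 in overexpression against control and 0.59 to 0.95 in overexpression against knockdown. Slc47a1 in knockdown against control turned positive without control replicate 3 (0.71) or without knockdown replicate 1 (0.0061), within -0.60 to 0.71 over all left-out libraries, and was 0.39 without control replicate 3 and knockdown replicate 3, a pair left out after seeing the data. Over the alternatives the lowest adjusted p of a carrier in knockdown against control was 0.615 (Slc13a3, edgeR without knockdown replicate 1), beside 0.838 for the same gene in the main edgeR fit. The number of genes passing in edgeR, 1 in each comparison, depended on the setting. In knockdown against control it was 22 with no filter, 43 with DESeq2, 2 with the compared groups alone and 0 with limma on log2(TPM + 0.1) or log2(TPM + 1), and 0 to 10 with 1 library left out (10 without knockdown replicate 4). In overexpression against control it was 20 with no filter, 38 with DESeq2, 0 with limma-voom or the compared groups alone, and 0 to 4 with 1 library left out (4 without overexpression replicate 2). In overexpression against knockdown it was 3 with DESeq2, 0 with limma-voom and 0 to 2 with 1 library left out. With either pair of libraries left out after seeing the data (control 3 and knockdown 3, or control 4 and overexpression 3) it was 0 in each comparison. The cause of these shifts was not tested. Over all genes tested, libraries of the same replicate number were not generally alike: r between same-numbered deviations was -0.34 to 0.16, and 1 of 12 libraries was closest to its own number. In the 8 carriers replicate 3 was the highest control in 8, the highest knockdown library in 8 and the highest overexpression library in 7. Replicate 4 was the lowest control in 8, but the lowest of its group in 0 elsewhere. Whether libraries of the same number shared a batch was not tested. With a replicate block the number of genes passing in edgeR was 0 in knockdown against control, 1 in overexpression against control and 2 in overexpression against knockdown.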
